A study of Rattus norvegicus with 3 samples.

Results

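Respiratory chain genes were examined in the kidney transcriptome of spontaneously hypertensive rats (SHRs) given HBMP, a protein hydrolysate of the blue mussel Mytilus edulis. They are the genes whose name on the array begins with Ndufa, Ndufb, Ndufc, Ndufs, Ndufv, Sdh, Uqcr, Atp5, or Cox followed by 4 to 8, with Cox8b left out. By this rule 92 of 17817 named genes were members, on 115 probes, and each was represented by its brightest probe above background. The name rule caught mostly, though not only, what the label promises. Of the 92 members, 75 are structural subunits of complexes I to V, 9 are assembly factors and 5 are gene copies or a pseudogene. The other 3 carry old names: Atp5s is now Dmac2l, Atp5sl is now Dmac2, and Cox4nb is now Emc8, a gene of the endoplasmic reticulum.

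All animals were male SHRs with a Wistar strain background, aged 8 to 10 weeks and weighing 280 to 330 g. The control group received water, the low-dose group received HBMP at 10 mg/kg/day and the high-dose group HBMP at 20 mg/kg/day, all by mouth for 28 days. There was no group of rats with normal blood pressure, so every value is from a hypertensive animal. Each group had 10 rats, and kidney RNA of 4 of them was mixed in equal amounts and hybridised, labelled with Cy3, to 1 array. The data are therefore 3 arrays, a number that limits the precision. With 1 array per group no test between groups was possible, and differences between arrays are set against the spread between replicate spots, a technical measure that leaves out variation from rat to rat.

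Oxidative phosphorylation passes electrons from NADH, through complex I, or from succinate, through complex II, to ubiquinone, then through complex III and cytochrome c to complex IV, where oxygen is reduced. Complexes I, III and IV pump protons across the inner mitochondrial membrane, and complex V, the ATP synthase, uses their return to make ATP. The kidney depends heavily on this process, because sodium reabsorption in the proximal tubule and the thick ascending limb consumes much ATP. Members here are encoded in the nucleus. None of the 13 mitochondrially encoded subunits was found on the array by its usual name.

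The promoters of nuclear respiratory chain genes are known for sites of the transcription factors NRF1, GABPA (also called NRF-2) and YY1, and this gives the members a feature that the name rule did not use. RefSeq promoters of the rat build GRCr8, from 250 bases before to 50 after each gene's start, were matched by symbol for 77 of the 92 members. The sequences searched on both strands were GCGCANGCG for NRF1, CCGGAAGT for GABPA and AAGATGGC for YY1, and matches of different motifs overlapped in 0 members. An NRF1 match was present in 20 of 77 members (26%), against 5.8% of all 33469 promoters. A GABPA match was present in 8 (10.4%, against 3.81%) and a YY1 match in 15 (19.5%, against 3.17%). At least 1 of the 3 motifs was found in 37 members, 48.1% against 11.6% of all promoters. Complex IV held the smallest share, 2 of 11 promoters (18.2%), while complex I had 18 of 32, complex II 2 of 4, complex III 3 of 5 and complex V 9 of 14. The share over all promoters counted every entry, was not limited to genes measured on the arrays and was not matched to the members' brightness. A match is a description of the letters and not evidence of binding.

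Promoters are shown for 3 subunits that differed by more than 1.5-fold in the results below, and for Sdha, the catalytic subunit of complex II, whose 4 genes stood on the same side of control. Each is the 250 bases before the start, 5′ to 3′, with matches of the 3 motifs in capitals. Atp5b (chr7:1099808-1100057, plus strand) holds none of these letters. Atp5i (chr14:1464610-1464859, plus strand) holds a YY1 match 183 to 176 bases and an NRF1 match 76 to 67 bases before the start, which reads on both strands. Ndufv3 (chr20:9613536-9613785, plus strand) holds an NRF1 match 39 to 31 bases before the start. Sdha (chr1:30764303-30764552, plus strand) holds NRF1 matches 89 to 81 and 46 to 38 bases before the start, and the third of its matches overlaps the start and is not in capitals.
Atp5b: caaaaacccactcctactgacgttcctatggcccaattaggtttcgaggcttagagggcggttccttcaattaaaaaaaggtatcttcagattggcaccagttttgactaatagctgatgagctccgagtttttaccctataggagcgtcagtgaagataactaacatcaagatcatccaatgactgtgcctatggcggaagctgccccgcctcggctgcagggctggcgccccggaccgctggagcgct
Atp5i: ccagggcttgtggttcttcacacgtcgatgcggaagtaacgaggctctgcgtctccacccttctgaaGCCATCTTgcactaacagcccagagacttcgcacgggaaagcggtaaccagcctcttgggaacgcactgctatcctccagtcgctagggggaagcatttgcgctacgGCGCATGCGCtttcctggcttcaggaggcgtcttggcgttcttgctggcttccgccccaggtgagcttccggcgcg
Ndufv3: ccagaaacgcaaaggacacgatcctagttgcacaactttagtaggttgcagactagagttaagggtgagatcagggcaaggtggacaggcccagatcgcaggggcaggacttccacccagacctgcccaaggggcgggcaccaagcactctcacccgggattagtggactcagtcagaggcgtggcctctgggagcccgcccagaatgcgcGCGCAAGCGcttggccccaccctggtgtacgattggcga
Sdha: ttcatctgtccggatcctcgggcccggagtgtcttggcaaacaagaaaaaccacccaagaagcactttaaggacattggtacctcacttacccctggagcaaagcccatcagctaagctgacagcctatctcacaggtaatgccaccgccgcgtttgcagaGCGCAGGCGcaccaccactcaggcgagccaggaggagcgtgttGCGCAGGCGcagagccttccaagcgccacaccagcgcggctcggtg
Members with and without a match are set side by side here as a description. The median difference from control at the low dose was -0.11 (log2) over 37 measured members with a motif and -0.16 over 37 without. At the high dose these medians were -0.07 and -0.00, and between the doses 0.07 and 0.14.

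Of the 92 members, 89 stood above background on all 3 arrays and 3 on none, so none passed through 1 group alone. The limit for this was a signal-to-noise ratio of 3, met by 50% or more of the spots of a probe. On the arrays as a whole 50.9% to 55.0% of 30129 probes did so, and no member's spot had saturated pixels. The members not above background were Cox6a2, the heart and muscle isoform of a complex IV subunit, Cox8c, a testis isoform, and Ndufaf2, a complex I assembly factor. Values below are net intensities scaled so that the 75th percentile of each array is equal, or differences between 2 arrays in log2 units. Among the 66 probes printed on 10 spots whose brightness was like the members', the SD between spots of the difference from control was typically 0.10 at the low dose, 0.09 at the high dose and 0.06 between doses (medians). For 95% of single spots the deviation from their probe's median was within 0.21 at the low dose, 0.22 at the high dose and 0.13 between doses. Most members, 79 of 92, rest on a single spot, and 13 on 10 spots.

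Like most named genes, most respiratory chain members were a little below control on the low-dose array. On the high-dose array their median was nearly level with control. At the low dose 69 of 89 members were below control and 20 above, where 64% of all named genes and 74.1% of genes of like brightness were below. Their share below control is thus near that of comparable genes. Their median difference was -0.13, against -0.10 for all 9741 named genes above background on both arrays and -0.16 for 718 genes of like brightness. The members are among the brighter genes, with a median mean signal of 12.6 (log2) against 7.60 for all named genes, so genes of like brightness are given beside the main values. At the high dose 51 members were below control and 38 above, where 57.8% of all named genes and 71.4% of those of like brightness were below. Their median was -0.04 against -0.06 for all named genes and -0.14 for those of like brightness. The members' share below control at the high dose, 57.3%, is near that of all named genes and smaller than the 71.4% of genes of like brightness. Between the doses, 65 of 89 members were higher at the high dose, where 53.2% of all named genes and 361 of 718 genes of like brightness were higher. The median of that difference was 0.10, against 0.02 and 0.00. Under the alternative settings the median for members stayed above that for all named genes by 0.03 to 0.14 in this comparison, whereas the median against control at the high dose ran from -0.05 to 0.04. The low and high differences share the control array. In a whole kidney, fewer cells of a type and less RNA per cell cannot be told apart.

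**Figure D1:**
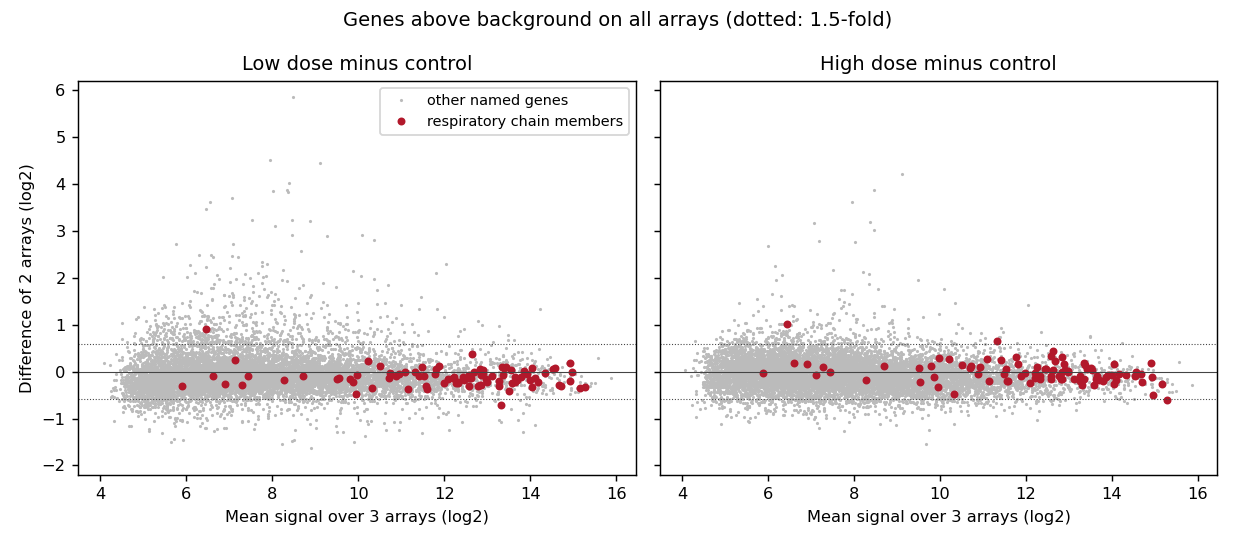
Difference between 2 arrays (log2, vertical) against mean signal over the 3 arrays (log2, horizontal) for genes above background on all arrays, with respiratory chain members in colour and other named genes in grey. Members lie at the bright end, around a median mean signal of 12.6, and nearly all lie within the dotted lines at 1.5-fold.

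The members' differences were spread over a narrower range than those of the other sets, less so between the doses. The exception was the brightest genes at the low dose. The interquartile range of their differences from control was 0.23 at the low dose, against 0.38 for all named genes and 0.32 for genes of like brightness. At the high dose it was 0.27, against 0.40 and 0.36, and between the doses 0.22, against 0.39 and 0.26. For the 14 members with a mean signal of at least 14 (log2) the low-dose range was 0.35, against 0.34 for all 100 named genes that bright. At the high dose these ranges were 0.20 and 0.25, and between the doses 0.15 and 0.23. Few members reached a 1.5-fold difference. At the low dose 2 of 89 did, Ndufv3 and Atp5s, where 11.3% of all named genes and 8.36% of those of like brightness did. At the high dose 3 did, Atp5b, Atp5i and Atp5s, where 7.69% and 6.41% did. Between the doses only Atp5b did, where 9.56% and 4.18% did. Atp5s at the high dose was the only member past 2-fold, in a background of 1% there, 3.17% at the low dose and 1.98% between doses.

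**Figure D2:**
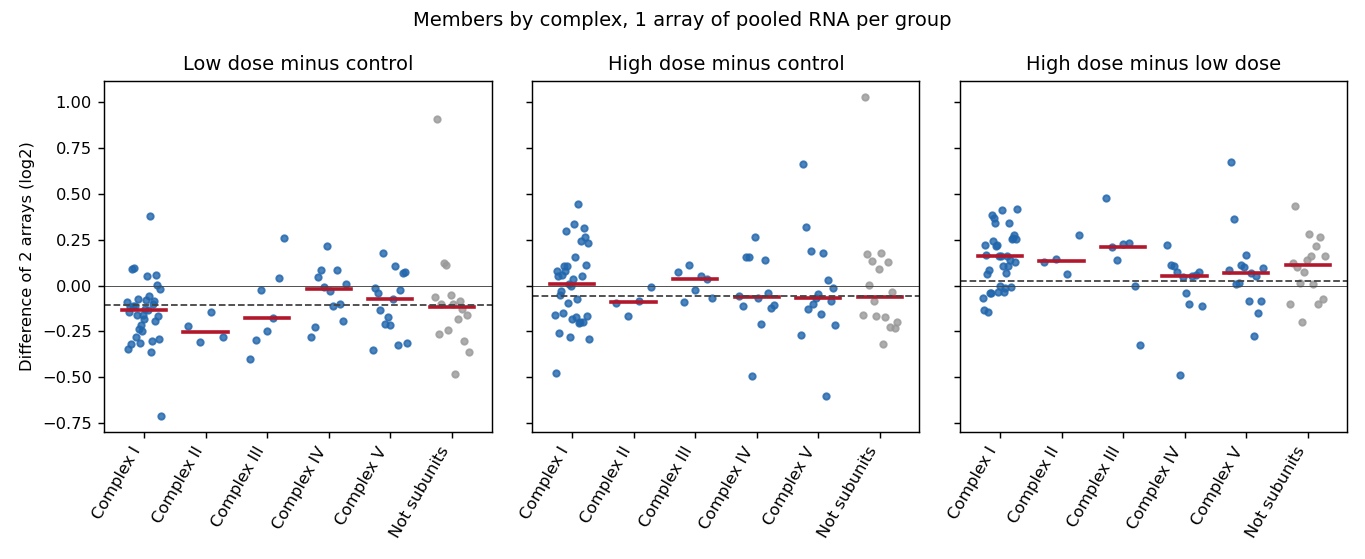
Difference between 2 arrays (log2) for each member above background, grouped by complex I to V and members that are no subunit, with a panel for each comparison. Points are members, bars are medians and the dashed line is the median of all named genes. Complex II lies below 0 against control at both doses, as do 74.1% of genes of like brightness at the low dose and 71.4% at the high dose. With the main settings, complexes I to III lie highest between the doses, with medians of 0.16, 0.13 and 0.21. In the authors' deposited table the medians of complexes IV and V between the doses were higher than here.

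Complex I, which oxidises NADH, had 35 measured subunits. At the low dose 29 were below control and 6 above, with a median of -0.14, and at the high dose 17 were below and 18 above, with a median of 0.01. Below control were 74.1% of genes of like brightness at the low dose and 71.4% at the high dose. The 7 core subunits, which carry the flavin, the iron-sulphur clusters and the ubiquinone site, had medians of -0.16 and 0.11. All 7 core subunits were higher on the high-dose than on the low-dose array, with a median of 0.25, and 18 of 28 accessory subunits were, with a median of 0.12. So were 53.2% of all named genes and 361 of 718 genes of like brightness. Ndufs3, a core subunit of the arm that reduces ubiquinone, had intensities of 2639 (control), 2465 (low dose) and 3121 (high dose). Over its 10 spots the difference from control was -0.10 ± 0.08 (SD) at the low dose and 0.24 ± 0.06 at the high dose. The high-dose array stood above both others at every Ndufs3 spot. Ndufv2, an iron-sulphur subunit beside the NADH site, measured 6250, 6178 and 7351, with differences over 10 spots of -0.01 ± 0.16 and 0.24 ± 0.17. Ndufs1, the large iron-sulphur subunit of the NADH-oxidising arm, measured 3506, 2726 and 3049 and was thus lowest at the low dose, at -0.36, beyond the deviation of most single spots.

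Among the accessory subunits of complex I, Ndufc2 of the membrane arm stood highest against control at both doses, with intensities of 5264, 6853 and 7172 and differences of 0.38 and 0.45. Ndufb6, also of the membrane arm, measured 5771, 5464 and 7265, with differences of -0.08 and 0.33. Ndufs6, an accessory subunit of the NADH-oxidising arm, measured 6685, 6949 and 8297. These subunits had their highest value on the high-dose array. Ndufa10 was lowest against control at the high dose, with 1544, 1214 and 1109 and differences of -0.35 and -0.48. Ndufa2 at 0.09 and Ndufa5 at 0.10 were above control at the low dose, and Ndufb2 was below at both, at -0.25 and -0.28.

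Ndufv3, an accessory subunit of the NADH-oxidising arm, was the complex I member farthest from control. Its chosen probe, with 1 spot, measured 12762 (control), 7809 (low dose) and 10417 (high dose), which is 1.63-fold lower at the low dose. Its 2 other probes did not show this. A second bright probe with 1 spot gave -0.13 at the low dose, and a dimmer probe with 10 spots gave -0.02, in place of -0.71. The mean over its probes was -0.29, so the size of the Ndufv3 difference depends on the probe.

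Complex II, succinate dehydrogenase, links the respiratory chain to the tricarboxylic acid cycle and is the complex with no mitochondrially encoded subunit. All 4 of its subunits were below control at the low dose, with a median of -0.25, and again at 20 mg/kg/day (median -0.09), and all 4 were higher at the high than at the low dose. Of genes of like brightness 74.1% were below control at the low dose and 71.4% at the high dose, and 361 of 718 were higher at the high than at the low dose. Sdha, the flavoprotein that oxidises succinate, measured 5514 (control), 4731 (low dose) and 5162 (high dose). Sdhb, the iron-sulphur subunit, measured 6822, 5515 and 6093, the largest low-dose difference of the 4 at -0.31. Each of these subunits has its lowest value on the low-dose array and its highest on the control array. The membrane anchor Sdhc measured 6457, 5845 and 6097. The other anchor, Sdhd, measured 7876, 6478 and 7840. Sdhd is the member of complex II printed on 10 spots, and its difference was -0.28 ± 0.06 at the low dose, with every spot below control, and -0.00 ± 0.07 at the high dose. Its low-dose difference exceeded the spread between its spots, and its high-dose difference did not.

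**Figure D3:**
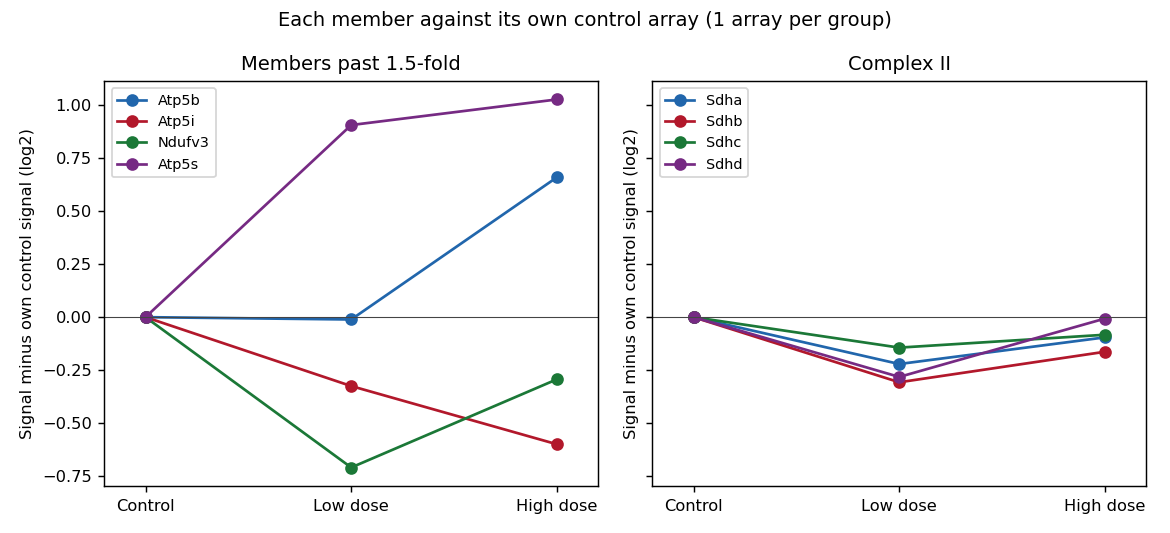
Signal of each gene minus its own signal on the control array (log2, vertical) on each of the 3 arrays, with 1 array per group. In one panel are Atp5b, Atp5i, Ndufv3 and Atp5s, the members past 1.5-fold, and in the other the 4 subunits of complex II. These 4 all lie below 0 at both doses, Sdhd only just so at the high dose. So do 74.1% of genes of like brightness at the low dose and 71.4% at the high dose.

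**Figure D4:**
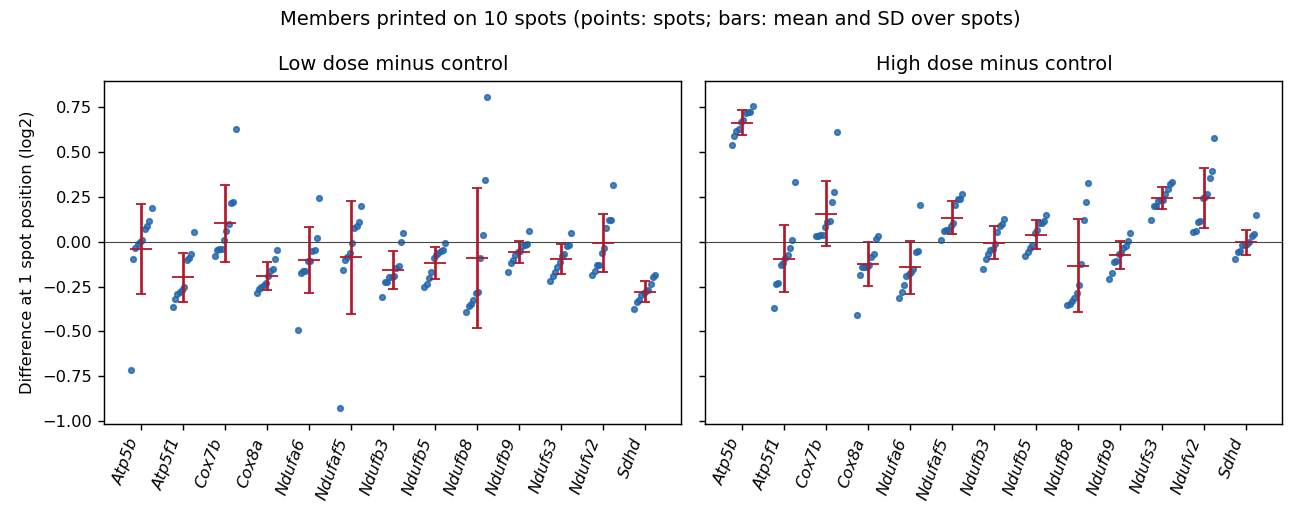
Difference between arrays (log2) at each of 10 spot positions for the 13 members printed on 10 spots, with bars for the mean and SD over spots. Sdhd lies below 0 at every spot at the low dose, and Atp5b lies between 0.54 and 0.76 at every spot at the high dose.

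Complex III, the cytochrome bc1 complex, passes electrons from ubiquinol to cytochrome c. Of its 7 measured members 5 were below control at the low dose, with a median of -0.18, and 3 at the high dose (median 0.04). The shares of genes of like brightness below control were 74.1% and 71.4%. The Rieske iron-sulphur protein Uqcrfs1 measured 5781, 5120 and 6001, with differences of -0.18 and 0.05. Uqcrb, an accessory subunit, measured 10732, 8729 and 10099, with -0.30 and -0.09, while its second, dim probe gave -0.23 and 0.06. Uqcrc2, one of the core proteins, was at -0.25 and -0.02. Uqcrc1, the other core protein, differed by only -0.03 and 0.11. The hinge protein Uqcrh was at 0.04 at both doses. Uqcr11, a small accessory subunit, measured 12526, 9481 and 13184 with the probe used, a difference of -0.40 at the low dose and 0.07 at the high dose. A further probe gave -0.45 and 0.03, while the third gave 0.07 and 0.15, so the low value at the low dose was seen in 2 of 3 probes. Uqcrq, with 134, 160 and 128, was dim, and was the member of the complex highest at the low dose, at 0.26.

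Complex IV, cytochrome c oxidase, had 12 measured members and differed least at the low dose, with 7 below control and a median of -0.02, which was 0.01 under quantile normalization and 0.03 under normexp. At the high dose 8 were below, with a median of -0.06, which turned to 0.077 under quantile normalization, 0.06 in the authors' deposited table and 0.01 under normexp. Genes of like brightness were below control in 74.1% at the low dose and in 71.4% at the high dose. Cox5a and Cox5b, subunits on the matrix side, measured 7248, 7485 and 8068 and 16014, 16966 and 17830, so both were highest at the high dose, with differences of 0.15 each. Cox7b, on 10 spots, was at 0.10 ± 0.21 at the low dose and 0.16 ± 0.18 at the high dose. Its mean differences were smaller than the SD between its spots, although all 10 spots were above control at the high dose and 6 of 10 at the low dose. Ndufa4, named after complex I but found in complex IV, was at 0.01 and -0.11. Cox6a1, the liver-type isoform, was lowest of the complex at the high dose, with 35903 (control), 35749 (low dose) and 25496 (high dose), a difference of -0.49 at the high dose. In the authors' deposited table this difference was 0.04, and under quantile normalization -0.29, so its direction and size were not settled.

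Several complex IV subunits have isoforms of different tissues. Cox4i1, the widely expressed isoform, measured 28140, 23177 and 27051, differences of -0.28 and -0.06, and Cox4i2, known from lung and low oxygen, 1012, 866 and 936, differences of -0.22 and -0.11. This pair lay on the same side of control. Cox6a2, the heart and muscle counterpart of Cox6a1, was not above background on any array, with values of 20.6, 14.5 and 11.8. Cox6b2, known from testis, measured 1067, 1240 and 1279, differences of 0.22 and 0.26. Cox7a2, the liver-type isoform, was at -0.11 and -0.21 with its brighter probe and 0.24 and 0.15 with the other, so its direction is not settled. Cox8a, the widely expressed isoform, was at -0.19 ± 0.08 and -0.13 ± 0.12 over 10 spots, while the testis isoform Cox8c was not above background.

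Complex V, the ATP synthase, had 15 measured members, of which 11 were below control at the low dose (73.3%) and 10 at the high dose (66.7%), against 74.1% and 71.4% of genes of like brightness. Both medians were -0.07, and that at the high dose turned to 0.049 under quantile normalization, 0.06 in the authors' deposited table and 0.01 under normexp. The F1 head, which carries the catalytic sites and the rotor, held the widest range. Atp5b, its catalytic beta subunit, had intensities of 2200 (control), 2183 (low dose) and 3474 (high dose), so the high-dose array alone was high, 1.58-fold above control. Over its 10 spots the high-dose difference was 0.66 ± 0.07, from 0.54 to 0.76, and the low-dose difference -0.04 ± 0.25, with 5 spots above and 5 below. The difference between the doses was above 0 at all 10 spots. Under the alternative settings Atp5b at the high dose ran from 0.64 to 0.76. Atp5a1, the alpha subunit that alternates with beta in the head, did not share this, with 42315, 33214 and 35169 and differences of -0.35 and -0.27. Atp5c1, the gamma subunit of the rotor, measured 3286, 3189 and 4098, a difference of 0.32 at the high dose. Atp5e, the epsilon subunit, was at 0.18 and 0.19.

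In the membrane part of complex V, subunit c of the proton-carrying ring is encoded by 3 genes. With the probes used all 3 were below control at both doses, with medians of -0.17 and -0.07. A second, dimmer Atp5g3 probe gave -0.26 and 0.02. Atp5i, subunit e, measured 49199, 39282 and 32477, lowest on the high-dose array, and was 1.51-fold lower than control at the high dose. In the authors' deposited table this difference was 0.02 and under quantile normalization -0.35, against -0.60 here, so this difference too was not settled. The 100 brightest named genes, with a mean signal of at least 14 (log2), lay at a median of -0.17 for the high dose, and 79 of 100 were below control. Of the 14 members that bright, 12 were below. The part of this in the Atp5i and Cox6a1 values was not tested. Atp5l, subunit g, differed by 0.07 and -0.01 with its brighter probe and by 0.20 and 0.10 with the other. In the stalk, which holds the head still, Atp5o was at -0.31 and -0.21 and Atp5h at 0.11 and 0.18.

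The members that are no structural subunit gave little of their own. The 8 measured assembly factors, which help to build complexes without staying in them, had medians of -0.15 and -0.13. The 5 gene copies, whose probes may read the parent gene too, were at -0.06 and -0.16. Atp5s, now Dmac2l, which is not a subunit, was the member farthest above control, with 56.1, 105 and 114, or 1.87-fold at the low dose and 2.04-fold at the high dose. It is dim, and its 1 spot was printed in a region of weak signal on the control array. Under normexp background correction its differences were 0.45 and 0.51. Ndufaf4, a complex I assembly factor, had 3 probes above background that gave from -0.40 to 0.12 at the low dose. Over the 18 members with more than 1 probe above background, the median spread between probes was 0.22 at the low dose and 0.28 at the high dose, larger than the members' own median difference at either dose. Probes of the same member lay on opposite sides of control in 4 of the 18 at the low dose and 12 at the high dose.

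Other mitochondrial genes were placed in lists drawn up alongside the members. The uncoupling proteins, with medians of 3.35 and 2.27 over 2 measured genes, stood apart and are given with the cell type markers below. The tricarboxylic acid cycle feeds the chain with electrons, and its list also held pyruvate dehydrogenase subunits and pyruvate carboxylase. In this list 13 of 18 genes were below control at the low dose (median -0.17) and 8 of 18 at the high dose (median 0.05). Higher at the high than at the low dose were 15 of 18. Of all named genes 64% were below control at the low dose and 57.8% at the high dose. Between the doses 53.2% of them were higher at the high dose. Idh3a, the catalytic subunit of NAD-dependent isocitrate dehydrogenase, measured 121, 89.6 and 164. Electron carriers and ubiquinone synthesis genes were at -0.07 and -0.04 (15 genes), and assembly factors of complexes III to V at -0.14 over 19 genes and 0.03 over 20. Import and outer membrane genes were at -0.13 and -0.02 (22 genes) and antioxidants at -0.25 and 0.11 (8 genes). At the low dose the median of each of these lists, apart from the uncoupling proteins, was below control. So was that of all named genes (-0.10) and of genes of like brightness (-0.16). In the mitochondrial ribosome, which makes the mitochondrially encoded subunits, 46 of 67 genes were below control at the low dose and 27 at the high dose, with medians of -0.06 and 0.06. Mrpl15 and Mrpl50 of the ribosome differed by 0.67 and 0.59 at the high dose, and the import channel gene Tomm40 by 0.61 and Timm17a by 0.59. Gpx4, a glutathione peroxidase that protects membrane lipids, was at -0.67. Among 16 regulators of mitochondrial biogenesis the median was -0.13 and 0.00. Ppargc1a, the coactivator PGC-1 alpha, measured 105, 74.2 and 132. Ssbp1, a mitochondrial DNA binding protein, was at 0.64 and 0.84, and Pprc1, a relative of Ppargc1a, at -0.05 and -0.82.

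**Figure D5:**
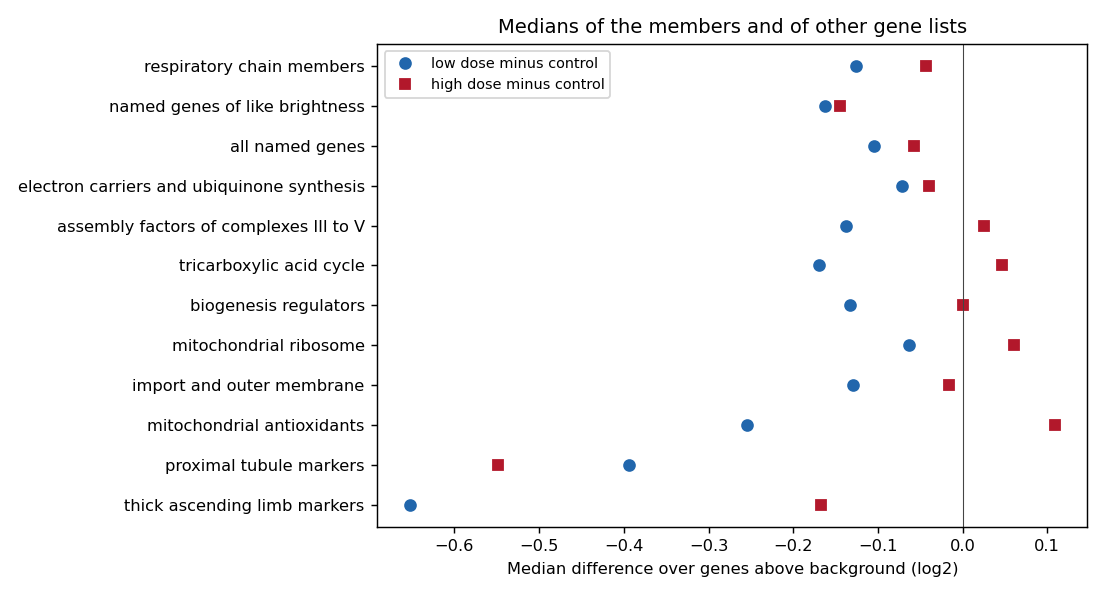
Median difference (log2, horizontal) over the genes above background of the members and of other gene lists, at the low dose and at the high dose against control. The members, at -0.13 and -0.04, lie close to most mitochondrial lists. The proximal tubule list, at -0.39 and -0.55, and the thick ascending limb list, at -0.65 and -0.17, lie to their left at both doses.

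Lists of cell type markers differed between the arrays, and their part in the members' values was not tested. Among all named genes, 64% were below control at the low dose and 57.8% at the high dose. Proximal tubule markers were below control in 7 of 7 genes at both doses (medians -0.39 and -0.55), with summed intensities of 103547, 82150 and 74449. Thick ascending limb markers were below in 6 of 6 at the low dose (median -0.65) and 4 of 6 at the high dose (median -0.17), with sums of 59155, 41932 and 46425. The latter, like the members, were lowest on the low-dose array. Adipocyte markers, of which 3 of 7 were above background on all arrays and 2 (Plin1 and Lep) on none, summed to 264 (control), 3125 (low dose) and 2207 (high dose). Brown adipocytes are rich in mitochondria, and 3 of their 4 markers were above background, all but Elovl3, with sums of 633, 5689 and 2026. Ucp1 and Cidea were above control at both doses, whereas Ppargc1a was at -0.50 and 0.33. Ucp1, the uncoupling protein of brown fat, was at 37.5, 2190 and 551. Ucp2 was at 35, 62.6 and 55.4. Macrophage markers had 5 of 6 genes above control at the low dose (median 1.18) and sums of 2281, 5030 and 2298. Striated muscle markers were above background on no array in 5 of 7 genes, and the muscle isoform Cox6a2 was likewise below background. Principal cell markers of the collecting duct were above control in 3 of 6 at both doses, with sums of 21534, 42332 and 28367. Podocyte markers were below control in 4 of 4 and 3 of 4, and the 2 measured distal convoluted tubule markers in both.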

How the data were processed

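Kidney RNA was measured on 3 single-colour Agilent rat arrays, 1 pool of 4 rats per group, with groups taken from the labels. Per the file headers, GenePix Pro 6.1.0.4 read each spot at 532 nm with a photomultiplier setting of 550, and the deposited intensity is net of a background of 39 (control and high dose) or 40 (low dose). Agilent Feature Extraction is named in the submitters' processing notes. Saturated pixels are a percent, and signal-to-noise and flags a score, in the deposited files. A table of log2 values by the authors has columns with an equal median of 4.77. They correlate with the scanner values at 0.999, and how they were normalized is not given in the sources used. The high-dose header names a mouse design although its spots carry the rat annotation, and a further high-dose array it lists was not analysed here.

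Control spots, missed bright spots and spots with a pixel mean over 1.5-fold from their pixel median, in either direction, were left out. Net means were averaged per probe, scaled to an equal 75th percentile (factors 1.14, 0.964 and 0.907), given a floor of 1 and put on the log2 scale. The design foresaw Feature Extraction flags, and signal-to-noise took their place. Probes were named through accessions (18355), symbols (2758) or synonyms (422) in a RefSeq gene table, or by the file's symbol (1787), and 81 members matched by accession. Size rules of 1.5-fold and 2-fold replaced tests, and genes of like brightness had a mean log2 signal between 11.1 and 13.5. Named genes were, per complex and dose, the 3 highest and 3 lowest members, members past 1.5-fold, isoform pairs, members with disagreeing probes or below background, and up to 3 genes per other list past 1.5-fold. Ndufs3, Ndufv2 and the genes outside the name rule were chosen after their values were seen. The members and lists were chosen with earlier results of these data known. Alternatives covered scaling, quantile normalization, normexp (limma 3.58.1, R 4.3.3), the authors' table, probe choice, filters and position. Scripts ran in Python 3.11.15 with numpy 2.4.6 and pandas 2.3.3 and were tested on simulated data.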

Additional observations from a re-analysis of the deposited data

Results flagged for a closer look

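Cox8b, the heart, muscle and brown fat isoform of a complex IV subunit, is outside the members and showed a signal far above the control array. It measured 83.5 (control), 1190 (low dose) and 352 (high dose), differences of 3.83 and 2.07 (log2), or 14.2-fold and 4.21-fold. Its widely expressed counterpart Cox8a, a member, was at -0.19 and -0.12. The probe has 1 spot, outside the weak corner of the control array. Of the 4 brown adipocyte markers, Ucp1 (37.5, 2190 and 551) and Cidea (488, 3430 and 1340) had the same order of arrays, Ppargc1a (105, 74.2 and 132) was lowest at the low dose, and Elovl3 was above background on no array.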

How the results depend on the processing

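No paired analysis was possible because each group has 1 array. Of 150 main values recomputed under the alternatives, 136 stayed within the spread between spots or within 1.5 times a count. That spread was 0.18, the typical SD between spots of the level on 1 array, and is wider than that of the differences. A median near 0 could change sign within it. The members' median at the high dose did so, from -0.05 to 0.04. The count of members past 1.5-fold at the low dose was 1 in place of 2 under normexp, in the authors' table, with the mean over probes, with a signal-to-noise limit of 10, without the weak corner, and over structural subunits only. At the high dose it was 1 in place of 3 under normexp and 5 without a filter on background. The high-dose median of complex IV was 0.077 under quantile normalization and 0.06 in the authors' table, and that of complex V 0.049 and 0.06. Between the doses the authors' table gave 0.155 for complex IV and 0.15 for complex V. The cause was not tested. Of 1195 values of named members, 1103 stayed within the spread between spots and 48 had another sign. Of these, 3 were over 0.2 in size here, all in the authors' table: Atp5i at the high dose (0.02) and between the doses (0.02), and Cox6a1 at the high dose (0.04). Removal of tile medians was chosen after seeing the data. One array per group, and a single spot for most members, set the limit of what can be told apart.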

Other observations

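Subunit genes that the name rule missed were found by their current symbols. Cyc1, the cytochrome c1 of complex III, measured 15200 (control), 12500 (low dose) and 11900 (high dose), differences of -0.29 and -0.35 (log2). Uqcr10 of the same complex was at -0.08 and -0.21. Cox6b1, the widely expressed counterpart of Cox6b2, had 3 probes under a placeholder name, which gave from -0.12 to -0.06 at the low dose and from 0.04 to 0.08 at the high dose. Atp5mk, a small ATP synthase subunit, was at 0.22 and 0.16 with one probe and at 0.21 and 0.10 with the other, and Atp5if1, the inhibitor of the ATP synthase, was at -0.01 and -0.03.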
